A study of Mus musculus with 15 samples.

Results

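The 7 genes described here encode receptors and ion channels by which enterochromaffin cells of the gut are known to sense irritants, metabolites, catecholamines and force. They are the receptors Olfr558 and Adra2a, the cation channels Trpa1, Trpc4 and Piezo2, and the voltage-gated channels Scn3a and Cacna1a. They were listed by that function, and were selected on a reading of these data in which their response was already known, so their values in the libraries labelled mutant and control are given as a description without a p-value. The 7 are part of 37620 gene identifiers counted in 15 libraries of mouse ileum, which is the final stretch of small bowel. All 7 matched an identifier, had counts in all 15 libraries and passed the filter on low counts in every fit.

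Adult mice of 3 genotypes were used, and per the labels' protocols they received tamoxifen by gavage (10 mg a dose, over a course of 5 days). Animals labelled mutant were Rfx6f/f Vilin-CreERT2: both alleles of Rfx6, a transcription factor of hormone-producing gut cells, were flanked by loxP, and a Cre recombinase that tamoxifen switches on was driven by the Villin promoter, which works throughout the intestinal epithelium and not in enterochromaffin cells alone. Controls carried no recombinase, so no group holds the recombinase without loxP-flanked Rfx6. Ileum was taken 8 days (3 Rfx6f/f controls, 4 mutant) or 3 months after tamoxifen (4 controls, of which replicates 1 and 4 were Rfx6f/f and replicates 2 and 3 Rfx6f/+, and 4 mutant). Each library is 1 animal by its title, and time cannot be told apart from cohort. Sex and age are not given in the labels.

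Enterochromaffin cells are the hormone-producing cells of the gut epithelium that make serotonin, for which Tph1 is the rate-limiting enzyme. They are electrically excitable: voltage-gated sodium and calcium channels carry their action potentials and the calcium entry that releases serotonin onto nerve endings. Trpa1 opens to irritants, Olfr558 responds to short branched fatty acids made by microbes, Adra2a binds catecholamines and acts through Trpc4, and Piezo2 opens when the membrane is stretched. Most of these genes are also used by neurons, muscle or interstitial cells, which a piece of whole ileum contains.

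Library totals, as multiples of 1000000 counts, were 30.5 to 54.5 at 8 days and 26.1 to 36.3 at 3 months. Levels are given as CPM, the counts per 1000000 of the TMM-adjusted library total, on which scale 3 counts correspond to 0.0566 to 0.115. The targeted gene Rfx6 did not separate the groups downward. Its 8-day controls had 1.65, 1.37 and 1.58 CPM, against 1.84, 2.10, 1.61 and 1.47 CPM under the label mutant, a log2 fold change of 0.19 (adjusted p = 0.867, edgeR quasi-likelihood test). At 3 months it had 1.74, 1.59, 1.46 and 1.48 CPM against 3.34, 2.30, 2.31 and 2.26 CPM (0.72, adjusted p = 0.0347, and 0.239 with Rfx6f/f controls only). That call held without mutant replicate 2 or 4 and was lost without any other 1 of the 8 libraries (adjusted p = 0.0562 to 0.0972). The labels do not say which exons the loxP sites flank, so a count over the whole gene does not check the deletion. Hormone genes of other endocrine cells do separate the groups: the summed level of Gcg, Pyy, Nts, Gip, Cck, Sct, Ghrl and Sst was 171 ± 21.2 CPM (SD, n = 3) against 39.0 ± 13.9 CPM (n = 4) at 8 days, and 186 ± 35.2 against 21.0 ± 2.30 CPM (n = 4 each) at 3 months.

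Olfr558 (ENSMUSG00000070423) showed the largest difference of the 7. Its 3-month controls had 0.888, 0.946, 1.19 and 0.965 CPM (26, 31, 31 and 28 counts), and the 4 libraries labelled mutant had 3.74, 3.55, 4.07 and 3.16 CPM (119, 111, 157 and 91 counts). The groups were far apart, with a gap wider than the range of either. The log2 fold change was 1.88 ± 0.15 (SE), or 3.69-fold. At 8 days the controls had 1.06, 1.21 and 1.34 CPM and the libraries labelled mutant 1.43, 1.34, 1.23 and 1.33 CPM. These groups overlapped, with a log2 fold change of 0.14 ± 0.17. Of the exon length of Olfr558, 3.32% is shared with the predicted gene Gm45688 on the other strand, which is not in the count table, and the strand setting of the counting is not given in the sources used here. The promoter of Olfr558 is printed because this gene moved most. It spans 250 bases before to 50 bases after the RefSeq start site, on the plus strand at chr7:102702073-102702372 (GRCm38.p6), and capitals mark a match to the E-box CAGATG that begins at position -122 from the start:
Olfr558: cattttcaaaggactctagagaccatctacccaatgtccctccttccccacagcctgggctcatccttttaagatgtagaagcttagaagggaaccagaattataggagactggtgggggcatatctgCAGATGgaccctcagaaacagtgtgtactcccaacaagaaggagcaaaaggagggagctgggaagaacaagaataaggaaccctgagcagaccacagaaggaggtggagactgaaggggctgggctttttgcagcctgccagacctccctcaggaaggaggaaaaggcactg
The same letters, read on both strands, occur in 17.2% of the 32851 RefSeq promoters of this length.

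Adra2a (ENSMUSG00000033717), an inhibitory adrenergic receptor, differed little. At 3 months the controls had 7.24, 6.04, 5.29 and 5.20 CPM, and the libraries labelled mutant 7.68, 8.09, 7.68 and 7.02 CPM. Control replicate 1 lay above the lowest library labelled mutant, so the groups overlapped, and the log2 fold change was 0.37 ± 0.13. At 8 days the controls had 7.89, 5.83 and 11.1 CPM, and the libraries labelled mutant 8.17, 6.89, 7.73 and 16.1 CPM. Replicate 4 of the latter stood apart, and the 8-day log2 fold change of 0.22 ± 0.32 turned to -0.13 ± 0.23 without it. The Adra2a promoter (chr19:54045009-54045308, plus strand, GRCm38.p6) is shown as the other receptor of the set. Capitals mark the letters GGCAAC at position -54 from the start, which are the RFX core motif GTTGCC on the other strand:
Adra2a: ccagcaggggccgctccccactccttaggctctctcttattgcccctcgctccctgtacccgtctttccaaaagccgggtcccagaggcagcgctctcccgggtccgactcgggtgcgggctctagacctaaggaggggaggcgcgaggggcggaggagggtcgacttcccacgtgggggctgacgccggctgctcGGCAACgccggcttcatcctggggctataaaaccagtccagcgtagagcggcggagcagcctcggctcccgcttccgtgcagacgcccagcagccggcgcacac
GTTGCC occurs on either strand in 12.5% of RefSeq promoters of this length. A homeodomain core, TAATTA, was searched in the same way (5.29% of promoters) and was in neither sequence, and the Trpc4 promoter held none of the 3 motifs. These matches are letters in a window and not evidence that a factor binds there.

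Trpc4 (ENSMUSG00000027748), the channel that Adra2a acts through in these cells, was also close between groups. Its 3-month controls had 2.01, 2.14, 1.80 and 2.21 CPM and the libraries labelled mutant 2.39, 2.40, 3.01 and 2.71 CPM. All 4 mutant values were above all controls, by a narrow margin, with a log2 fold change of 0.38 ± 0.14. The 8-day values, 2.18, 2.58 and 3.17 CPM against 2.88, 3.62, 2.82 and 2.10 CPM, overlapped (0.11 ± 0.21). That fold change turned to -0.03 without mutant replicate 2, and its sign also turned without control replicate 1.

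Trpa1 (ENSMUSG00000032769), the irritant channel, was among the least counted members, with 26 to 87 counts a library. Values in the 3-month controls were 0.888, 1.31, 1.15 and 1.45 CPM, against 1.45, 1.50, 1.84 and 1.25 CPM under the label mutant. The ranges overlapped, and the log2 fold change was 0.35 ± 0.20. At 8 days it had 1.52, 2.39 and 1.56 CPM against 1.36, 1.44, 0.999 and 1.67 CPM (-0.43 ± 0.24), again with overlap. Trpa1 had the lowest 8-day fold change of the 7 over all libraries, but its value moved to -0.18 without 8-day control replicate 2.

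Piezo2 (ENSMUSG00000041482), the stretch-activated channel, was one of the better counted members, with 252 to 918 counts a library. At 3 months the controls had 11.5, 10.2, 9.66 and 11.5 CPM, against 11.6, 12.4, 16.8 and 13.5 CPM under the label mutant. The groups did not overlap, but mutant replicate 1 and the highest controls differed by less than the spread within controls, and mutant replicate 3 was far above the others. The log2 fold change of 0.35 ± 0.13 was 0.23 without that replicate. At 8 days the values were 17.6, 15.2 and 16.6 CPM against 16.8, 18.3, 16.5 and 13.3 CPM (-0.02 ± 0.12).

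Scn3a (ENSMUSG00000057182), which encodes the pore of a voltage-gated sodium channel, was the second gene with a clear difference. Its 3-month controls had 5.33, 5.34, 5.29 and 5.89 CPM (138 to 175 counts) and the libraries labelled mutant 11.7, 9.53, 10.8 and 11.6 CPM (298 to 417 counts). No library of the one group came near the other, and the log2 fold change was 1.01 ± 0.10, or 2.02-fold. At 8 days the values were 6.64, 6.95 and 6.32 CPM in controls against 6.28, 6.71, 5.43 and 6.30 CPM, with overlap (-0.11 ± 0.12).

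Cacna1a (ENSMUSG00000034656), which encodes the pore of a presynaptic type of voltage-gated calcium channel, varied more between animals. The 3-month controls had 8.81, 12.3, 10.1 and 13.3 CPM and the libraries labelled mutant 21.7, 14.5, 16.3 and 12.2 CPM. Mutant replicate 4 lay below 2 controls, and the log2 fold change was 0.55 ± 0.19. At 8 days it had 31.9, 20.6 and 26.2 CPM against 19.5, 24.0, 25.7 and 18.8 CPM (-0.26 ± 0.16). An antisense gene, Gm16183, shares 3.81% of its exon length and had 0 to 2 counts a library.

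**Figure D1:**
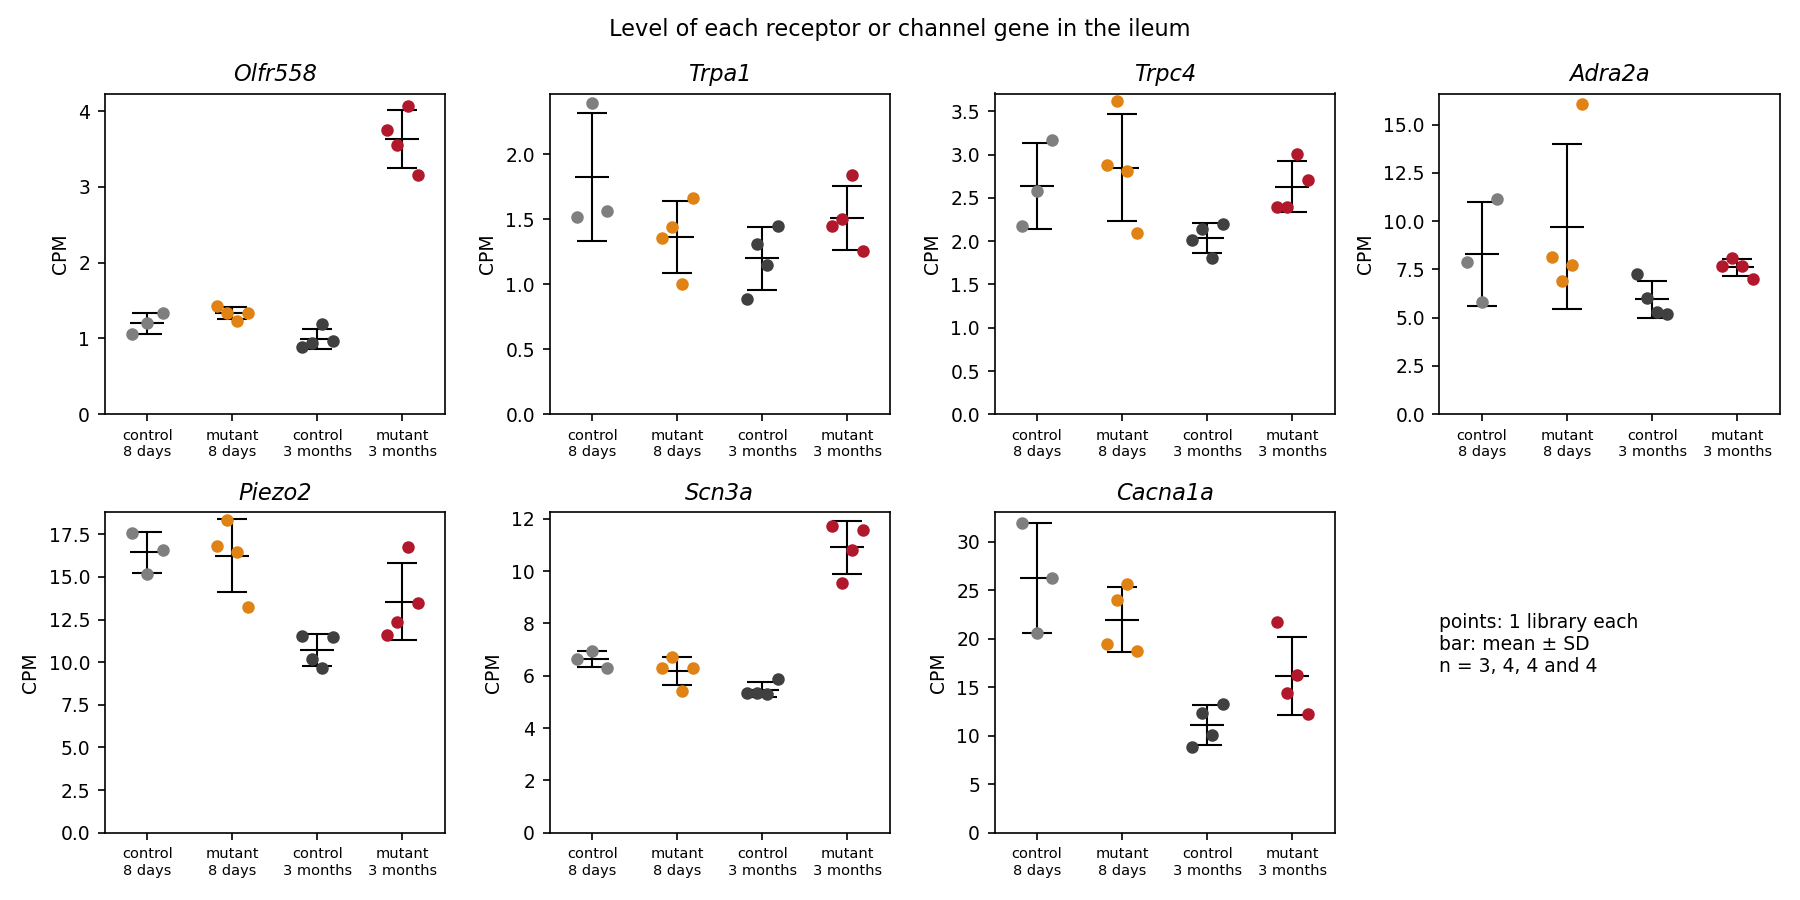
Level of each of the 7 genes in CPM (linear axis from 0) in the 4 groups. Each point is 1 library and bars are the mean and SD (n = 3, 4, 4 and 4). Olfr558 and Scn3a are the 2 genes whose 3-month libraries labelled mutant stand well clear of all other libraries, at 3.16 to 4.07 and 9.53 to 11.7 CPM.

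With a call at a Benjamini-Hochberg adjusted p under 0.05 (edgeR quasi-likelihood test over all genes), 2 of the 7 were called higher at 3 months, Olfr558 and Scn3a, and none lower. Over all 17085 genes tested at 3 months 4.96% were called higher and 4.32% lower. In either direction that is 1586 genes, and on leaving out 1 library they numbered from 391 without control replicate 3 (400 and 412 without control replicate 1 and 2, 856 and 768 without mutant replicate 1 and 3) to 1521 without control replicate 4. The median log2 fold change of the 7 was 0.38 at 3 months, against 0.008 over all genes. In the edgeR fit at 3 months 6 of the 7, all but Trpa1, had an unadjusted p under 0.05, as did 5018 of the 17085 genes. At 8 days 0 of the 7 were called by edgeR, 0 had an unadjusted p under 0.05, where 1540 of 17493 genes did, and 0 were called by DESeq2. Of all genes, edgeR called 0.0343% of 17493 higher and 0.0572% lower, and DESeq2 0.624% and 0.395% of the 17474 it gave an adjusted p. The 16 genes that edgeR called were 8 without control replicate 1 or 2, 10 without control replicate 3 and 200 without mutant replicate 1. The 8-day median was -0.02. These counts describe genes picked with the contrast known, so nothing is read from them about the set.

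DESeq2 called 4 of the 7 higher at 3 months, the other 2 being Adra2a and Cacna1a, where it called 8.78% of 16746 genes higher and 9.03% lower. With the 2 Rfx6f/f controls only, edgeR called 1 of 7, Olfr558, with a log2 fold change of 1.98, and Scn3a stood at 0.97. In that smaller fit 0.131% of 17552 genes were called higher and 0.0741% lower. Regardless of calls, 4 of the 7 (Olfr558, Scn3a, Trpc4 and Piezo2) had mutant libraries above every control at 3 months, as did 8.76% of all genes, while 10.6% were below every control. At 8 days none of the 7 was separated in either direction, against 3.98% of genes above and 3.70% below.

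The mutant-over-control difference at 3 months was set against that at 8 days in 1 fit of all 15 libraries. Olfr558 (1.73 ± 0.20 on the log2 scale, 3 months minus 8 days) and Scn3a (1.10 ± 0.14) were called higher, 2 of 7, against 0.379% of 17959 genes higher and 0.406% lower. That background moved with single libraries: the 141 genes called in either direction ranged, on leaving out 1 library, from 10 without 8-day control replicate 3 to 749 without 8-day mutant replicate 1. The other 5 had differences of 0.79 ± 0.27 for Cacna1a, 0.76 ± 0.31 for Trpa1, 0.36 ± 0.18 for Piezo2, 0.26 ± 0.25 for Trpc4 and 0.14 ± 0.36 for Adra2a, and were not called. All 7 were above 0, with a median of 0.76 against -0.01 over all genes, although Adra2a turned to -0.14 without 8-day control replicate 3. In the edgeR fit 4 of the 7 had an unadjusted p under 0.05, as did 2973 of 17959 genes. That too is a count of genes picked with the response known, and nothing is read from it. With Rfx6f/f controls only, 1 of 7 was called, Olfr558, where 0.0110% of 18199 genes were called higher and 0.0165% lower.

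**Figure D2:**
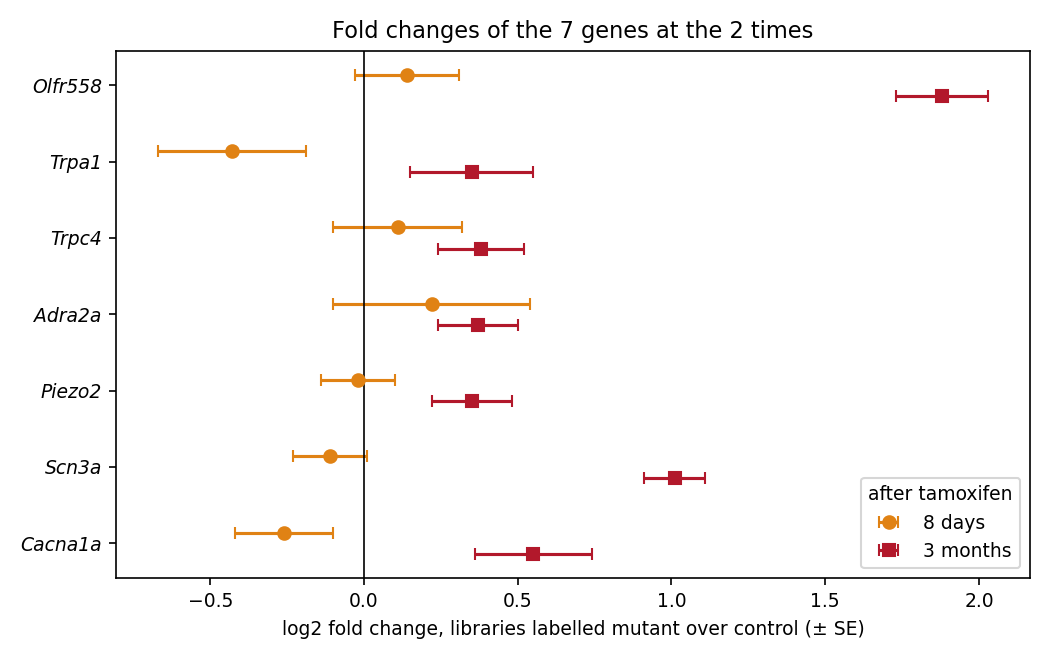
Log2 fold change (libraries labelled mutant over control) of the 7 genes at 8 days (circles, 3 control and 4 mutant libraries) and 3 months (squares, 4 and 4), with bars of 1 SE. At 3 months all 7 points are right of 0, from 0.35 to 1.88, with Olfr558 and Scn3a apart from the other 5, which lie between 0.35 and 0.55.

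Levels can be ranked between genes only per length, so each CPM was divided by the kilobases of annotated exon. In the 3-month controls the order was Adra2a (1.23 ± 0.195 CPM per kilobase, SD, n = 4), Cacna1a (0.974 ± 0.179), Piezo2 (0.625 ± 0.0552), Scn3a (0.438 ± 0.0230), Olfr558 (0.328 ± 0.0434), Trpa1 (0.281 ± 0.0564) and Trpc4 (0.254 ± 0.0220). Library ranges overlapped between Adra2a and Cacna1a, between Olfr558 and Trpa1 and between Trpa1 and Trpc4, and not between the other neighbours. In the 3-month libraries labelled mutant Olfr558 was in place 3, at 1.19 ± 0.125 CPM per kilobase, its range overlapping that of Cacna1a (1.42 ± 0.353) and lying above that of Scn3a (0.876 ± 0.0808). At the top and bottom the order was as in controls, with Adra2a first (1.58 ± 0.0915) and Trpa1 (0.354 ± 0.0576) and Trpc4 (0.327 ± 0.0367) last. The 8-day groups both had Cacna1a and Adra2a first with overlapping ranges, then Piezo2 and Scn3a, with Olfr558 at 0.395 ± 0.0463 (n = 3) and 0.438 ± 0.0266 CPM per kilobase (n = 4) among the lowest 3.

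Markers of enterochromaffin cells moved in the same libraries. Of 8 markers (Tph1, Ddc, Slc18a1, Lmx1a, Fev, Chga, Chgb and Tac1), 7 were tested and edgeR called 6 higher at 3 months, where it called 4.96% of all genes higher. They included Tph1 (log2 fold change 1.87 ± 0.22, adjusted p = 0.00408), Chga, a protein of hormone granules (1.58 ± 0.09, adjusted p = 8.8e-05), and Chgb (1.78 ± 0.15, adjusted p = 0.000798). Ddc (53.4 ± 10.5 against 85.7 ± 12.4 CPM) and Slc18a1 (9.54 ± 0.732 against 14.9 ± 1.08 CPM) rose less. Tac1 did not rise (32.3 ± 11.0 against 29.9 ± 5.27 CPM). Fev, with 1 to 4 counts a library at 3 months, was not tested. At 8 days edgeR called 0 of 7, with 3 at an unadjusted p under 0.05, where it called 0.0343% of all genes higher and 0.0572% lower. DESeq2 called 2, Lmx1a and Tph1, where it called 0.624% higher and 0.395% lower. Chga and Chgb are also made by other endocrine cells. The summed marker level was 203 ± 20.2 CPM in the 3-month controls and 484 ± 32.1 CPM in the libraries labelled mutant (SD, n = 4 each), and 179 ± 25.9 (n = 3) and 212 ± 22.0 CPM (n = 4) at 8 days. In such bulk samples more cells of a type and more RNA per cell cannot be told apart.

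Olfr558 was the 1 member whose fold change exceeded that of the whole marker sum. That sum holds markers that rose less or not at all at 3 months, Ddc (53.4 against 85.7 CPM) and Tac1 (32.3 against 29.9 CPM). The single marker Tph1 rose about as much as Olfr558, with log2 fold changes of 1.87 and 1.88. As a percent of that sum it was 0.497 ± 0.0966 in the 3-month controls and 0.751 ± 0.0549 in the libraries labelled mutant, a log2 ratio of 0.61, with the mutant libraries all higher. Scn3a fell slightly short of it, at 2.70 ± 0.152% against 2.26 ± 0.178% (log2 ratio -0.26, mutant libraries all lower). The other 5 had smaller fold changes than the marker sum: Trpa1 stood at 0.593% against 0.312% (log2 ratio -0.91), Trpc4 at 1.01% against 0.543% (-0.89) and Adra2a at 2.95% against 1.58% (-0.89). Piezo2 stood at 5.30% against 2.80% (-0.93), while Cacna1a, at 5.50% against 3.33% (-0.73), was the 1 member whose groups overlapped on this scale. Chga and Chgb make up much of the sum. Without Chga and Chgb the log2 ratio was 1.22 for Olfr558 and turned to 0.35 for Scn3a. The other 5 lay between -0.32 and -0.12 with overlapping groups. What remains of the sum is mostly Ddc and Tac1 (53.4 and 32.3 CPM in the 3-month controls). Tph1 and Lmx1a add 7.97 and 1.27 CPM. Scn3a itself rose less than Tph1, with log2 fold changes of 1.01 and 1.87. At 8 days the groups overlapped for all members but Trpa1, which stood at 1.02 ± 0.183% (n = 3) against 0.643 ± 0.117% (n = 4), and which overlapped as well without Chga and Chgb. These ratios describe the same libraries and carry no test.

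**Figure D3:**
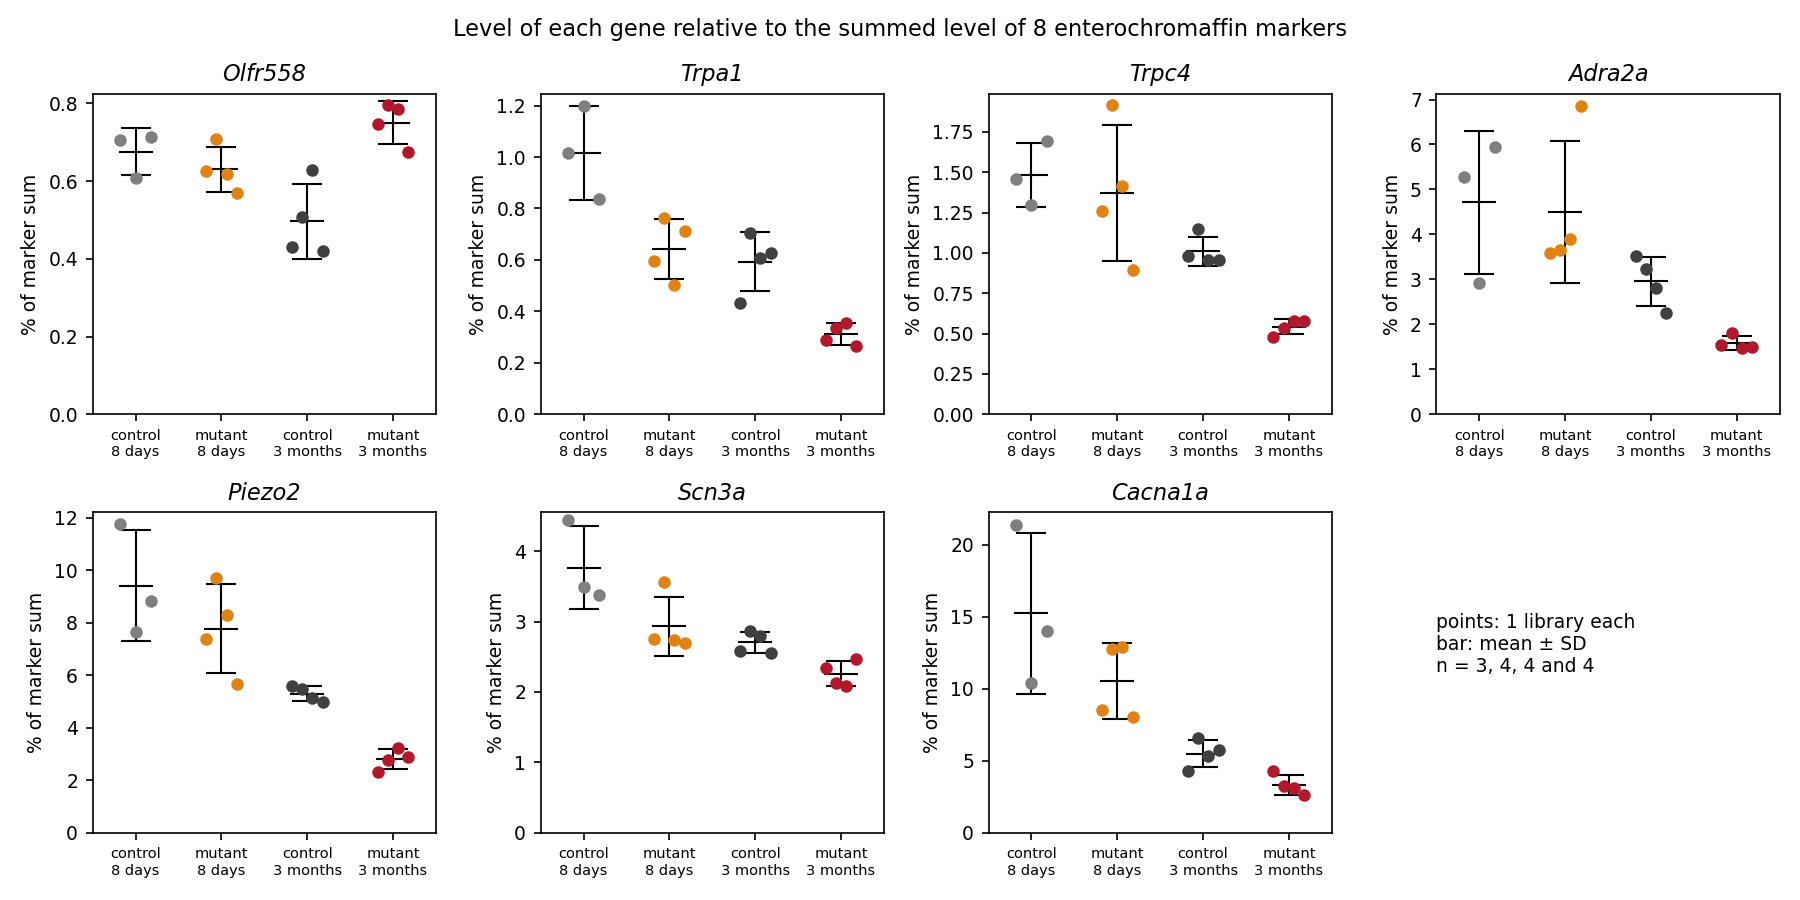
Each gene's CPM as a percent of the summed CPM of 8 enterochromaffin markers in the same library (linear axis from 0). Each point is 1 library and bars are the mean and SD (n = 3, 4, 4 and 4). At 3 months Olfr558 is the 1 gene with a higher percent in the libraries labelled mutant (0.675 to 0.795%, against 0.419 to 0.629% in controls).

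Markers of other cells that can hold these channels were present in every group, and none of their genes was at 0 in all libraries of a group. The summed level of 11 neuron markers was 64.0 to 68.8 CPM in the 3-month controls and 63.5 to 93.1 CPM in the libraries labelled mutant, with 1 of 11 called (Snap25, 0.70 ± 0.11, adjusted p = 0.0106). Smooth muscle markers summed to 1529 to 1840 against 1637 to 2976 CPM (0 of 6 called by edgeR), and the pacemaker-cell pair Kit and Ano1 to 48.1 to 59.6 against 59.5 to 87.0 CPM (Ano1 called, 0.61 ± 0.16, adjusted p = 0.0454). These 3 sums overlapped between the groups. The endothelial sum did not, at 71.6 to 77.4 against 80.1 to 110.2 CPM, although 1 of its 3 genes, Pecam1, overlapped (35.0 to 42.2 against 36.3 to 43.5 CPM). The other 2 were called higher by edgeR: Cdh5 (0.49 ± 0.10, adjusted p = 0.0245) and Kdr (0.58 ± 0.15, adjusted p = 0.0435). Without control replicate 1, 2 or 3 or mutant replicate 3, the calls of Ano1, Cdh5 and Kdr were all lost, that of Ano1 also without mutant replicate 2 or 4, and that of Kdr without any 1 library but mutant replicate 1 (edgeR adjusted p = 0.0529 to 0.117 over these fits). The other sums at 3 months, controls against libraries labelled mutant, were 3.72 to 5.58 against 4.41 to 7.13 CPM for glia, 11.6 to 30.0 against 10.7 to 44.8 CPM for tuft cells and 149.8 to 229 against 91.6 to 163 CPM for immune cells. At 8 days the neuron sum was 75.3 to 104 against 72.3 to 93.2 CPM and the muscle sum 1850 to 2897 against 2262 to 3674 CPM. The 8-day immune sum was 76.8 to 83.0 CPM in controls and 79.3, 114, 210.4 and 228 CPM in mutant replicates 1 to 4, higher under the label mutant where the 3-month sum was lower on average, with 0 of 3 genes called by edgeR at either time. Mutant replicate 3 of the 3-month cohort was the highest library of that cohort in the enterochromaffin (518 CPM), neuron, glia, muscle, pacemaker and endothelial sums, and it was also highest for Olfr558, Trpa1, Trpc4 and Piezo2. Without it the 3-month log2 fold changes were 1.82 for Olfr558, 0.24 for Trpa1 and 0.31 for Trpc4. The part of these other cells in the members' values was not tested. Genes of ileal epithelium (Vil1, Fabp6, Slc10a2, Muc2 and Lyz1) were high in every library, with sums of 9750 to 18134 CPM. At 3 months 1 of these 5 fell, Fabp6, a bile acid carrier of enterocytes (2387 ± 304 against 873 ± 247 CPM, -1.44 ± 0.20 on the log2 scale, adjusted p = 0.00873), and 1 rose, Muc2, the mucin of goblet cells (1567 ± 192 against 2995 ± 636 CPM, 0.95 ± 0.16, adjusted p = 0.0144).

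The genes whose profile over the 15 libraries was most like each member's were found by the root-mean-square (RMS) difference of centred log2 CPM among 13431 genes, as a description without a test. For Olfr558 they were Chga (RMS 0.211), Tubb2a (0.263) and Npl (0.292), with Chgb and Tph1 in ranks 8 and 9. For Scn3a they were Ttyh1 (0.157), Tpbg (0.167) and Slc16a12 (0.178). The nearest to Trpa1 were Scn2a (0.200), Msantd3 (0.214) and Chl1 (0.226), and to Cacna1a were Mn1 (0.198), Epha5 (0.202) and Ccdc120 (0.203). Trpc4 was nearest to Arhgef25 (0.130), Tspan9 (0.133) and Timp3 (0.133), and Piezo2 to Kirrel (0.095), Dlc1 (0.097) and Rbpms (0.098). Adra2a had Pfkl (0.255), Angel1 (0.267) and Klf5 (0.270). Among the 7 themselves the closest pair was Trpc4 and Piezo2 (0.181), while Olfr558 and Scn3a were 0.378 apart. All these profiles share the split into 2 cohorts.

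The controls of both cohorts were also set side by side. These are the libraries that the members' response was measured against, so this contrast is not independent of the choice of the 7 and is given without a p-value for them. Cacna1a was lower in 3-month than in 8-day controls by a wide margin, at 11.1 ± 2.05 CPM (n = 4) against 26.3 ± 5.64 CPM (n = 3), a log2 fold change of -1.24 ± 0.20. Piezo2 was lower at 10.7 ± 0.948 against 16.4 ± 1.19 CPM (-0.62 ± 0.13). Scn3a stood at -0.28 ± 0.10 and Trpa1 at -0.60 ± 0.23. All 4 were called lower by edgeR, but Scn3a and Trpa1 lost the call with Rfx6f/f controls only (log2 fold changes -0.25 and -0.65), where 15.1% of 18199 genes were called lower, and with no filter on low counts (-0.31 and -0.63), where 14.3% of 27917 were. Scn3a also lost it without any 1 of 8 libraries (3-month control replicate 1, 2 or 3, any 8-day control, or replicate 4 of either mutant group), with log2 fold changes of -0.32 to -0.24. Trpa1 lost it without any 1 of 9 (3-month control replicate 1, 2 or 3, 8-day control replicate 2, 3-month mutant replicate 1, 2 or 4, or 8-day mutant replicate 1 or 2), with log2 fold changes of -0.66 to -0.36. Piezo2 and Cacna1a were called in all 20 alternatives.

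Olfr558 (-0.28), Trpc4 (-0.38) and Adra2a (-0.48) were not called between the control cohorts. In all, 4 of 7 were called lower and none higher, where edgeR called 22.1% of 17959 genes lower and 23.0% higher. The median of the 7 was -0.48, against 0.018 over all genes. Markers of several cell types were lower in the same contrast. From 8-day to 3-month controls the sums were 90.8 ± 14.4 against 65.8 ± 2.19 CPM for neurons (8 of 11 called lower and 1 higher by edgeR), 7.45 ± 1.22 against 4.92 ± 0.822 CPM for glia (2 of 4) and 2426 ± 531 against 1646 ± 143 CPM for smooth muscle (1 of 6). Pacemaker genes stood at 77.9 ± 5.12 against 53.3 ± 4.74 CPM (1 of 2), tuft-cell genes at 62.1 ± 9.17 against 17.9 ± 8.26 CPM (4 of 4 tested), endothelial genes at 92.4 ± 4.51 against 74.3 ± 2.49 CPM (2 of 3) and epithelial genes at 17489 ± 511 against 11615 ± 1256 CPM (2 of 5). Immune genes were higher, at 79.1 ± 3.37 against 187 ± 32.7 CPM (2 of 3). Enterochromaffin markers were at 179 ± 25.9 against 203 ± 20.2 CPM, with 2 of 7 called higher by edgeR, Chgb and Tac1, and 0 lower. DESeq2 called these 2 higher and Ddc lower (-0.41 ± 0.17 on the log2 scale in the edgeR fit), where it called 23.5% of 17946 genes higher and 23.0% lower. Chgb lost that call in 8 of 15 fits without 1 library (any 8-day control, 3-month control replicate 1 or 4, 3-month mutant replicate 1 or 3, or 8-day mutant replicate 1, adjusted p up to 0.187, edgeR). The part of these cells in the members' values was not tested.

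The 2 control genotypes at 3 months were tested against each other, a contrast within the controls, with 2 libraries each and a spread estimated over all 8 libraries of that time. None of the 7 was called between Rfx6f/+ and Rfx6f/f: log2 fold changes ran from -0.23 ± 0.17 for Piezo2 to 0.18 ± 0.23 for Olfr558, with adjusted p (edgeR) from 0.819 to 0.999, 0 at an unadjusted p under 0.05 and 0 by DESeq2. Over 17780 genes edgeR called 0% higher and 0% lower, with 1220 at an unadjusted p under 0.05, and DESeq2 called 0.135% of 17766 higher and as many lower. At 2 libraries a genotype, a difference of the size of these SEs was not detectable.

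The other members of the same families and pathways were read from the same fits: 92 genes, 91 of them with an identifier, in 7 lists (Trp channels, sodium channels, calcium channels, adrenergic receptors, the G proteins and potassium channels that Adra2a couples to, mechanical channels, and receptors for metabolites). At 8 days 75 were tested and edgeR called 0, with 10 at an unadjusted p under 0.05. DESeq2 called 3 of them, Trpc1 and Scn4a higher and Gpr119 lower, beside the 0.624% and 0.395% given above. At 3 months 71 were tested, 5 rose and 2 fell by edgeR, with a median log2 fold change of 0.22, where 4.96% of all genes rose and 4.32% fell. DESeq2 called 13 higher and 2 lower, where it called 8.78% and 9.03% of all genes. In the joint fit of all 15 libraries edgeR called 11 higher, where it called 6.39% of 17959 genes higher and 6.25% lower. None was called for the difference between the times by edgeR, where 23 of 76 had an unadjusted p under 0.05 and DESeq2 called 5, all higher, against 2.52% of 16901 genes higher and 3.50% lower.

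Among the Trp channels, relatives of Trpa1 and Trpc4, 2 of 14 rose at 3 months by edgeR. Trpv3, a warmth-sensitive channel, had 3.27 ± 0.778 CPM in controls, against 8.37 ± 0.296 CPM under the label mutant (1.37 ± 0.17 on the log2 scale, adjusted p = 0.00606), and Trpc7 had 0.300 ± 0.152 against 1.03 ± 0.200 CPM (1.76 ± 0.34, adjusted p = 0.0207). Trpv3 kept its call in all 8 fits without 1 library and with Rfx6f/f controls only, while Trpc7 lost it without control replicate 1 (adjusted p = 0.0643) and with Rfx6f/f controls (0.135). Trpc6, a close relative of Trpc7, had 0.91 (adjusted p = 0.0515, edgeR), and DESeq2 called it higher.

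In the path that Adra2a couples to, 2 of 7 rose. Kcnj3, a potassium channel opened by G proteins, had 0.696 ± 0.0978 against 2.03 ± 0.329 CPM (1.55 ± 0.18, adjusted p = 0.00446). Its call held in all 8 fits without 1 library and not with Rfx6f/f controls only (0.0894), and 31.1% of its exon length is shared with a non-coding gene on the other strand. Gnao1, a G protein subunit, had 5.94 ± 1.10 against 8.42 ± 0.515 CPM (0.52 ± 0.14, adjusted p = 0.0483), and kept its call without control replicate 4 but not without any other 1 library (adjusted p = 0.0732 to 0.123). None of 7 adrenergic receptors was called by edgeR at 3 months, and Adra2b (0.28, adjusted p = 0.267) and Adra2c (0.95, adjusted p = 0.0740), the closest relatives of Adra2a, were among them. DESeq2 called Adra2c higher.

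Of 16 listed receptors for metabolites 10 were tested at 3 months, and 1 rose and 1 fell. Casr was below the filter, with 6 to 22 counts in controls and 0 to 2 under the label mutant. So was Gpr119, with 3 to 17 counts in controls and 0 under that label. The other untested receptors had 10 counts or fewer a library at that time. Olfr78, which binds short fatty acids and lies near Olfr558, had 0.415 ± 0.168 against 1.71 ± 0.795 CPM (2.05 ± 0.41, adjusted p = 0.0226). Ffar1, a receptor for long fatty acids, had 0.729 ± 0.0712 against 0.140 ± 0.145 CPM (-2.41 ± 0.62, adjusted p = 0.0442), with 0 to 8 counts in the libraries labelled mutant. Olfr78 lost its call without control replicate 1, 2 or 3 or mutant replicate 3 (adjusted p = 0.0511 to 0.0704), and Ffar1 without any 1 library except mutant replicate 4 (0.0559 to 0.107). Neither was called with Rfx6f/f controls only (0.206 and 0.229). Olfr78 shares 15.3% of its exon length with Olfr560 on the same strand, which is not in the count table.

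By edgeR no relative of the voltage-gated and mechanical members was called higher at 3 months. DESeq2 called 6 of them higher, Cacna1b, Cacna1c, Cacna1d, Cacna1g, Cacna2d1 and Scn7a, whose log2 fold changes in the edgeR fit were 0.41 to 0.53. Of 15 calcium channel genes 1 fell in the edgeR fit, Cacna1s (2.14 ± 0.551 against 1.08 ± 0.160 CPM, -0.97 ± 0.21, adjusted p = 0.0296), and 20% of its exon length is shared with an antisense gene. Its call was lost without control replicate 1, 2 or 3 or mutant replicate 1 or 3 (adjusted p = 0.0662 to 0.0806) and with Rfx6f/f controls only (0.226). Cacna1b, the nearest relative of Cacna1a, had 0.49 (adjusted p = 0.0537). None of 11 sodium channel genes was called by edgeR, including Scn2a (0.29, adjusted p = 0.385), nor any of 7 mechanical channels, including Piezo1 (0.10, adjusted p = 0.646). Trpc5, the nearest relative of Trpc4, had 0 to 4 counts a library and was not tested.

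**Figure D4:**
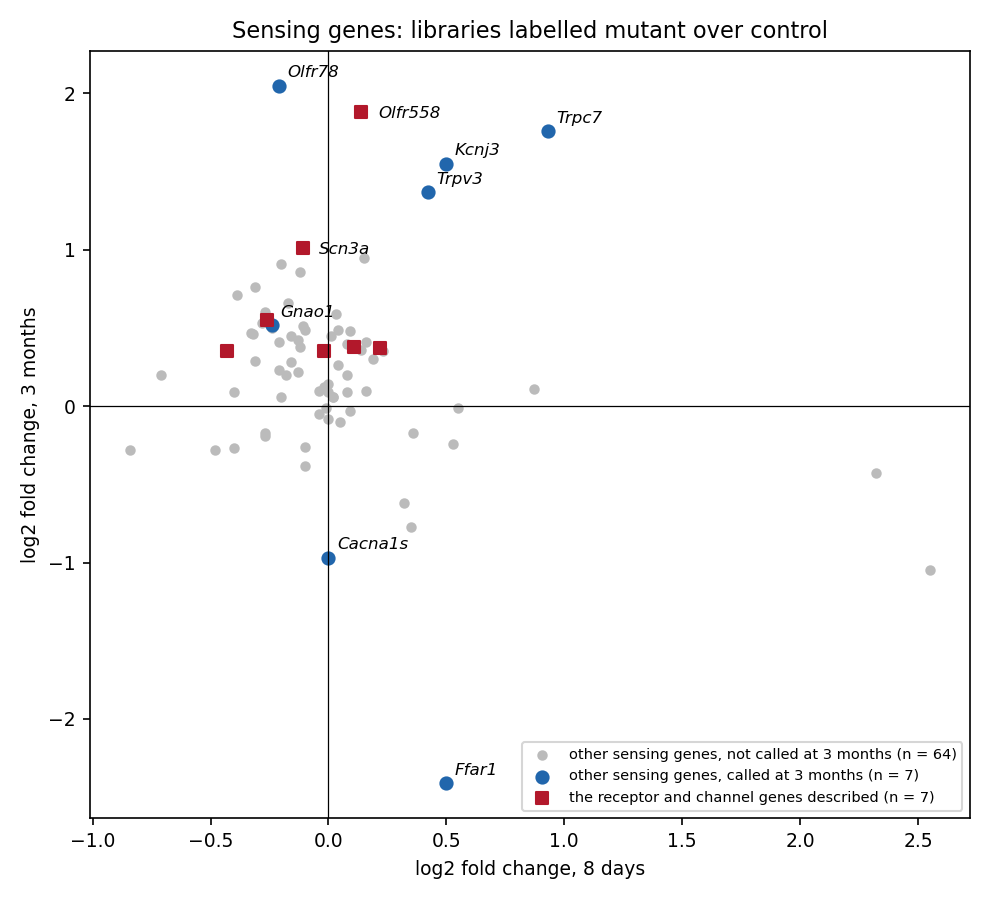
Log2 fold changes (libraries labelled mutant over control) at 8 days (horizontal) and 3 months (vertical) of 71 other sensing genes tested at both times and of the 7 genes described (squares). The 7 other genes called at 3 months are named, 5 above and 2 below 0, and Olfr558 and Scn3a lie among the highest at 3 months and near 0 at 8 days.

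Between the control cohorts 27 of 76 of these family genes were lower and 4 higher at 3 months, with a median log2 fold change of -0.37, where edgeR called 22.1% of all 17959 genes lower and 23.0% higher. Lower calls were made for 9 of 16 calcium channel genes and 3 of 11 sodium channel genes, beside those of Cacna1a and Scn3a.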

How the data were processed

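Ribosome-depleted total RNA from ileum was sequenced, per the labels' protocols, although polyA RNA stands in the molecule field. The authors deposited raw counts of reads for each Ensembl gene, 1 table per cohort and 1 column per animal. The submitters' processing notes name bcl2fastq 2.17.1.14, Bowtie 1.0.0, TopHat2 2.0.10, Bowtie2 2.1.0, HTSeq 0.6.1 and build mm9, without a role for each. Annotation release and strand setting are not given in the sources used here. RNA was extracted with 1 of 2 methods, and which sample had which is not given, so this was not modelled. No column was left without a sample. GENCODE M21 paired 32897 of 37620 identifiers (87.4%) with a symbol and gave exon lengths and overlaps. Promoters came from RefSeq (GRCm38.p6): Olfr558, Trpc4 and Adra2a matched an entry that could be shown. As the builds differ, no other coordinates are printed.

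Groups follow the genotype and time labels, and replicates were numbered in deposit order. Within groups no 2 libraries agreed within sampling noise. Counts were tested with the edgeR 4.0.16 quasi-likelihood test (R 4.3.3, two-sided) after filterByExpr (minimum count 10) and TMM scaling, each time alone, with the difference between times and the control cohorts from a fit of 4 group means over 15 libraries. The control genotypes came from a fit of the 3-month libraries in 3 groups. Calls used a threshold of 0.05 on p adjusted by Benjamini-Hochberg over all genes tested. CPM uses TMM over all 15 libraries, so it differs slightly from the scaling of each fit. Errors of means are SD, and of fold changes SE. P-values set a difference between groups against the spread between animals, estimated over all groups of each fit. The code was tested on simulated counts.

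The genes named are the 7 members, Rfx6, every called gene of the 7 family lists with the closest relatives of the members, markers by their sum, and the 3 nearest profiles of each member (centred log2 CPM, prior count 2, mean of at least 0). Trpc1, Scn4a, Gpr119, Casr, Trpc6, Snap25, Kit, Ano1, Pecam1, Cdh5, Kdr, Fabp6, Muc2, Tac1, Ddc, Slc18a1, Lmx1a, Fev, Gcg, Pyy, Nts, Cck, Scn7a, Cacna2d1, Cacna1c, Cacna1d and Cacna1g were named after their values were seen. The members and lists were chosen with earlier results of these data known. Alternatives were DESeq2 1.42.0, RLE scaling, no filter, 10 counts in every sample, a joint fit, Rfx6f/f controls only, marker sums without Chga and Chgb, and each library left out. Figures used matplotlib 3.10.9.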

Additional observations from a re-analysis of the deposited data

Results flagged for a closer look

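Single libraries stood apart from their group of 4 in 7 of 81 checks by Dixon's gap criterion, which chance passes in about 1 in 20 groups (4.05 expected here). For Adra2a, replicate 4 of the 8-day libraries labelled mutant had 16.1 CPM, against 6.89 to 8.17 CPM in the other 3, and its share of the enterochromaffin marker sum was 6.86%. For Scn3a, 3-month control replicate 4 had 5.89 CPM beside 5.29 to 5.34 CPM, a gap that is small in size, and 8-day mutant replicate 2 had 3.56% of the marker sum. For Rfx6, 3-month mutant replicate 1 had 3.34 CPM, against 2.26 to 2.31 CPM in the other 3. As a share of the marker sum, Trpc4 stood out in 3-month control replicate 2 (1.15%) and Adra2a in 3-month mutant replicate 2 (1.81%). The causes were not tested.

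EdgeR called the mutant-over-control difference unequal between the times for 2 of the 7 members, 2 of 7 enterochromaffin markers, 4 of 8 hormone genes of other endocrine cells and 0 of 76 family genes, and DESeq2 for 2 of the 7 members, 4 of the 7 markers and 5 family genes. Over all genes edgeR called 0.379% higher and 0.406% lower for this difference, and DESeq2 2.52% and 3.50%. The 3-month minus 8-day values on the log2 scale were 1.73 for Olfr558, 1.10 for Scn3a, 1.25 for Chga (adjusted p = 0.0231, edgeR, groups not overlapping at 3 months) and 1.38 for Chgb (adjusted p = 0.0231). Of the hormone genes, Cck had 1.79 (adjusted p = 0.0265, edgeR), Gcg -5.34 (0.00383), Pyy -6.08 (0.0101) and Nts -6.30 (0.00409). The values of the last 3 rest on 0 to 8 counts a library in the 3-month libraries labelled mutant. Gcg, Pyy and Nts were called in all 15 fits without 1 library. Without 3-month control replicate 2 or 3 or 8-day control replicate 2 or 3, the calls of Chga, Chgb and Cck were lost. Chgb and Cck also lost them without 3-month control replicate 1, and Cck without 8-day mutant replicate 3 (edgeR adjusted p = 0.0535 to 0.0790). Olfr558 and Scn3a were picked with these values known and carry no p-value. Time cannot be told apart from cohort in any of these genes.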

How the results depend on the processing

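No result changed direction with a call on both sides. At 3 months, members called higher numbered 4 by DESeq2 and 1 with Rfx6f/f controls only (2 to 2 with each library left out), and 1 for the difference between times with Rfx6f/f controls only. Members called lower between control cohorts numbered 2 with Rfx6f/f controls only, 2 with no filter and 2 to 4 with each library left out. Sensing genes called at 8 days numbered 2 higher and 1 lower by DESeq2 and 1 lower with no filter (0 to 2 higher and 0 to 1 lower with each library left out, the upper values without mutant replicate 1). At 3 months they numbered 13 higher by DESeq2, 11 in the joint fit and 1 with Rfx6f/f controls only (2 to 9 without a library), and 1 lower with 10 counts in every sample, 4 with no filter and 0 with Rfx6f/f controls only (0 to 3). For the difference they numbered 1 higher with 10 counts in every sample, 5 by DESeq2 and 1 with no filter (0 to 2 higher, 0 to 2 lower), and between control cohorts 1 higher with Rfx6f/f controls only (1 to 6). The causes were not tested. On the marker-sum scale without Chga and Chgb the 3-month log2 ratios were 1.22 for Olfr558, -0.31 for Trpa1, -0.29 for Trpc4, -0.28 for Adra2a, -0.32 for Piezo2, 0.35 for Scn3a and -0.12 for Cacna1a. That smaller sum is mostly Ddc and Tac1. Fold changes of the members kept their sign in all alternatives run at 3 months. The 8-day sign turned for Adra2a (-0.13 without mutant replicate 4), Trpc4 (-0.02 without control replicate 1 and -0.03 without mutant replicate 2) and Piezo2 (0.03 without control replicate 1 and 0.06 without mutant replicate 4), and Trpa1 went from -0.43 to -0.18 without control replicate 2. For the difference between times it turned for Adra2a (-0.14 without 8-day control replicate 3). None of these was called. Olfr558 stayed between 1.82 and 1.98 at 3 months. A lone control left by a left-out library was assumed to vary like the other groups. No paired analysis was possible because the labels give no replicate numbers and link no mutant to a control. The low counts of Trpa1, Olfr558 and Trpc7 limit their precision, and 2 Rfx6f/f controls at 3 months limit the fits that use them alone.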

Other observations

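Olfr558 and Olfr78 both lie on chromosome 7 with 3 annotated genes between them in GRCm38.p6. The 2 receptor genes in between, Olfr33 and Olfr559, had 0 counts in all 15 libraries. Olfr78 had 25 to 46 counts in the 8-day controls, 21 to 38 in the 8-day libraries labelled mutant, 7 to 19 in the 3-month controls and 24 to 94 in the 3-month libraries labelled mutant. Olfr558 had 32 to 71, 40 to 67, 26 to 31 and 91 to 157 counts in the same groups. The pair was looked at after the values of Olfr78 were seen.

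Gpr119, a receptor for lipid amides, had 8 to 17 counts in the 8-day controls and 0 to 1 under the label mutant (-3.98 ± 0.60 on the log2 scale, adjusted p = 0.0884, edgeR). At 3 months it had 3 to 17 counts in controls and 0 in all 4 libraries labelled mutant, and was below the filter. Trpc1, a relative of Trpc4, had 4.96 ± 1.21 CPM (n = 3) against 9.10 ± 1.31 CPM (n = 4) at 8 days (0.87 ± 0.19, adjusted p = 0.322), with all 4 libraries labelled mutant above the controls, and 8.31 ± 3.59 against 8.86 ± 4.85 CPM at 3 months.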
